A study of Mus musculus with 12 samples.

Results

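C10 cells given beta estradiol for 3 h were compared with HAFTL cells given beta estradiol. The 4 arrays involved, 2 per line, were chosen by sample title alone out of the 12 arrays of a study on turning a B cell line into macrophages. HAFTL is a mouse line from fetal liver, transformed with the Ha-ras oncogene. C10 carries an inducible form of the transcription factor C/EBPα. From what is known of these lines, C10 is 1 clone made from HAFTL by introducing C/EBPα fused to the hormone-binding domain of the oestrogen receptor, so both carry the oncogene. C10 given ethanol, the vehicle, was measured on 2 further arrays and is given beside both. Estradiol is thus present on both sides of the main comparison, while the introduced factor and every other difference between a clone and its parent line lie on the C10 side. The labels give no length of treatment for HAFTL or for the vehicle cells. Nothing in them says that duplicates came from separate cultures. The p-values and standard errors therefore cover the spread between duplicates alone, possibly a technical one. That spread was pooled over all 6 groups of the 12 arrays, later times included.

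C/EBPα is a basic leucine zipper factor that directs blood progenitors into the granulocyte and macrophage lineages. B cell precursors lack it. They are defined by factors such as Pax5 and Ebf1, by the surrogate light chains of the pre-B cell receptor, and by the Rag recombinase that assembles immunoglobulin genes. A fusion to the hormone-binding domain is held inactive in the cytoplasm until estradiol binds, and then enters the nucleus. Forced C/EBPα is known to turn B cell precursors into macrophage-like cells over days, so 3 h is an early time in that course.

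Signals are linear units after quantile normalisation, with values under 16 set to 16. A gene was tested if its signal exceeded 74.65, the median of all values, in at least 2 of the 12 arrays, which left 11696 of 18193 genes. Over the genes tested, duplicates correlated at 0.977 in C10 at 3 h, 0.980 in vehicle C10 and 0.979 in HAFTL (Pearson r over genes, which are no independent replicates). The ratio of 5′ to 3′ signal of the Actb control, a measure of RNA integrity, was 0.784 and 0.746 in C10 at 3 h, 0.582 and 0.638 in vehicle C10, and 0.691 and 0.740 in HAFTL. Of 12 pre-B cell markers, 11 had a probe set, and all 11 lay above the filter level in both arrays of HAFTL and of vehicle C10. In C10 at 3 h, 8 did, without Rag1, Rag2 and Pax5. The probe set of Cebpa stayed under the level, at 16 and 34.6 in C10 at 3 h, 16 and 16 in vehicle C10 and 33.5 and 16 in HAFTL, and was not tested. It gives no check of the introduced construct. Esr1, the oestrogen receptor gene, had 277 and 176 in C10 at 3 h, 207 and 209.7 in vehicle C10 and 26.3 and 38.2 in HAFTL. Both C10 groups lay above both HAFTL arrays, by at least 2.96-fold at 3 h (adjusted p = 8.7e-05, limma with Benjamini-Hochberg adjustment over all genes tested, as throughout). Whether that probe set reads the construct or the cells' own gene was not tested.

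Many genes differed between the lines, with more genes lower than higher in C10 at 3 h. At adjusted p below 0.05, 2605 genes were higher (22.3%) and 3248 lower (27.8%), 5853 of 11696 in all (50%). Counts of calls in the gene lists below can be read beside these shares. Changes of 2-fold or more numbered 913 higher and 1394 lower, and changes of 4-fold or more 234 and 414. The arrays of the groups did not overlap for 8709 genes (74.5%). Against vehicle C10, which shares the 3 h arrays, 2450 genes were higher at 3 h (20.9%) and 3196 lower (27.3%). Between the vehicle-treated clone and HAFTL fewer genes differed: vehicle C10 had 950 genes higher than HAFTL (8.12%) and 832 lower (7.11%), and here line and treatment cannot be told apart. These counts were 530 and 325 without replicate 1 of HAFTL, and 536 and 389 without replicate 2. The balance of directions rested on the scaling. Higher genes made up 44.5% of the calls in the main comparison, 39.3% on the deposited values, 58.2% when arrays were centred on their medians, and 79.6% when scaling used the poly-A spike-in transcripts. Against vehicle C10 they made up 43.4% and, under spike-in scaling, 83%, and between vehicle C10 and HAFTL 53.3% and, under median centring, 76.6%. The mean log2 signal of the spike-in probe sets was 7.69 and 7.37 in C10 at 3 h, 8.41 and 8.10 in vehicle C10, and 8.41 and 8.05 in HAFTL, and its part in the results was not tested. The median change over all genes tested was -0.06 on the log2 scale, and -0.16, 0.09 and 0.54 under those 3 scalings, and each change can be read against that median. In bulk RNA, fewer cells of a type and less RNA per cell cannot be told apart.

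**Figure D1:**
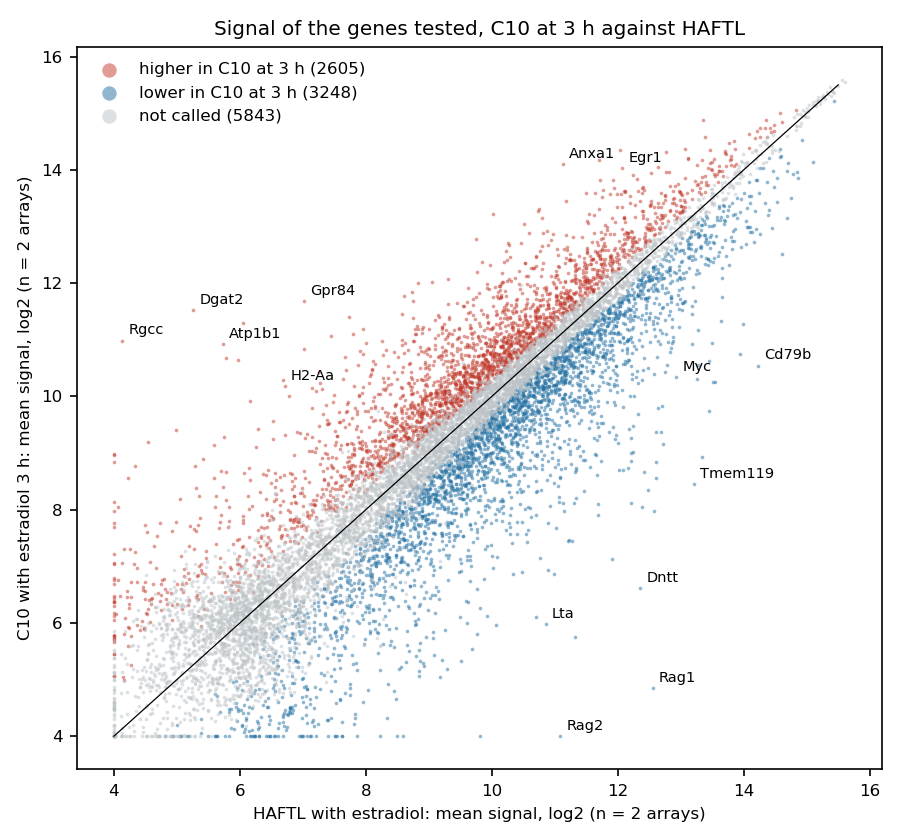
Mean log2 signal of each gene tested in C10 with estradiol for 3 h (vertical axis) against HAFTL with estradiol (horizontal axis), 2 arrays each, with the line of equal signal. Red points (2605) were higher and blue points (3248) lower in C10 at 3 h; Rgcc and Dgat2 lie near the HAFTL floor with high C10 signal, and Rag1 and Rag2 the reverse.

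The genes with the largest rises over HAFTL included genes of lipid synthesis, actin control, chemokines and extracellular proteases. Rgcc, a regulator of cell cycle and complement responses, had 1822 and 2259 in C10 at 3 h, 43.6 and 32.6 in vehicle C10 and 19.1 and 16 in HAFTL. The 4 other arrays all lay under the filter level, and Rgcc was at least 27.2-fold higher than in HAFTL (adjusted p = 4.9e-07). Dgat2, which makes the last step of triglyceride synthesis, had 2967 and 2914 in C10 at 3 h, 96.3 and 96.3 in vehicle C10 and 58.2 and 25.1 in HAFTL. It was at least 39.4-fold higher than in HAFTL (adjusted p = 4.9e-06), with both C10 arrays at 3 h far above the rest. Gpr84, a receptor for medium-chain fatty acids on myeloid cells, had 3367 and 3231 in C10 at 3 h, 142 and 97.1 in vehicle C10 and 123 and 137 in HAFTL. Vehicle C10 overlapped HAFTL, and the 3 h arrays stood apart with a log2 change of 4.67 ± 0.16 over HAFTL (SE, n = 2 per group, adjusted p = 1.0e-06).

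Several of the leading rises started from the floor. Mmp8, the neutrophil collagenase, had 507 and 419 in C10 at 3 h and 16 in all 4 arrays of vehicle C10 and HAFTL, at least 6.17-fold higher than in HAFTL (adjusted p = 2.3e-07). Mmp10, stromelysin 2, had 486 and 522 in C10 at 3 h, 62.8 and 16 in vehicle C10 and 16 and 16 in HAFTL, and was at least 6.75-fold higher. Serpinb2, the plasminogen activator inhibitor of macrophages, had 524 and 478 in C10 at 3 h, 33.9 and 16 in vehicle C10 and 16 and 16 in HAFTL and was at least 6.7-fold higher. Of these 6 arrays, only those of 3 h lay above the filter level for any of the 3 genes. Ptgs2, the inducible prostaglandin synthase, had 397 and 358 in C10 at 3 h, 16 and 30.9 in vehicle C10 and 21.8 and 16 in HAFTL, at least 5.05-fold higher than in HAFTL (adjusted p = 1.3e-05). Nfil3, a basic leucine zipper repressor, had 666 and 700.4 in C10 at 3 h, 16 and 16 in vehicle C10 and 62.8 and 16 in HAFTL, and was at least 9.15-fold higher. Anxa3, an annexin of neutrophils, was at least 5.89-fold higher and Abtb2, a BTB-domain protein, at least 3.79-fold. Both vehicle arrays lay under the level for Nfil3, Anxa3 and Abtb2 as well.

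The promoters of the 15 largest rises were searched for the letters that C/EBP factors are known to bind, since C10 carries such a factor. The letters TTGCNNAA were searched on both strands, TTNNGCAA being the same site read from the other strand, in the 250 bases before each RefSeq gene start (GRCm38.p6). This form includes the palindrome TTGCGCAA. Of the 15 genes, 13 had a window, and 4 of these held a match, while none of the 10 windowed genes among the 15 largest falls did. A match was present in 9.56% of all 32851 windows, in 8.85% of the genes called higher and in 9.52% of those called lower. The palindrome stood in 0.164% of all windows and, of the leading rises, in that of Ptgs2. A match describes letters in this window and shows no binding. The windows with a match are printed from 5′ to 3′ on the strand of the gene, with the match in capitals, because Mmp10, Serpinb2, Mmp8 and Ptgs2 are the rises that carry one; of Serpinb2 the farther upstream of its windows is shown.
Mmp10, chr9:7502092-7502341, strand plus: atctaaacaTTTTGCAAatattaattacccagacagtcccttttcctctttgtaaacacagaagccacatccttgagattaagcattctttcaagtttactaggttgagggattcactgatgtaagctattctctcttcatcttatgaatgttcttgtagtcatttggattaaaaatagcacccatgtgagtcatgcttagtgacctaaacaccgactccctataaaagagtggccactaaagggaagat
Serpinb2, chr1:107511173-107511422, strand plus: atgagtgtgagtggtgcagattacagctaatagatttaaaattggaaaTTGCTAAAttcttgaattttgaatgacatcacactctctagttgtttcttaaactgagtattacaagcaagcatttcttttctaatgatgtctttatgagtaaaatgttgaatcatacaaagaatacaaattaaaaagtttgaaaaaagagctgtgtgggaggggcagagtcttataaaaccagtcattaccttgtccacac
Mmp8, chr9:7558179-7558428, strand plus: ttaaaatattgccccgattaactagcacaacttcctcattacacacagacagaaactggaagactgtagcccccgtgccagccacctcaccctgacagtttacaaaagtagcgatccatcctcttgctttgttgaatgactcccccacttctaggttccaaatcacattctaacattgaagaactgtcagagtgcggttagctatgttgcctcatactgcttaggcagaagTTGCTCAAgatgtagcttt
Ptgs2, chr1:150099781-150100030, strand plus: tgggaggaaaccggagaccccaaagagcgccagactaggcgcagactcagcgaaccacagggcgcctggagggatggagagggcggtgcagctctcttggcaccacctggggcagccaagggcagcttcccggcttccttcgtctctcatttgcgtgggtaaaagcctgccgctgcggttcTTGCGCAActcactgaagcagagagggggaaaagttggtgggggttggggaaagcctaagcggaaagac

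The largest falls were led by the machinery of V(D)J recombination, which cuts and joins antigen receptor genes. Rag1, the catalytic subunit of the recombinase, had 30.8 and 26.9 in C10 at 3 h, 4927 and 4904 in vehicle C10 and 6035 and 6004 in HAFTL. Both 3 h arrays lay under the filter level, and Rag1 was at least 80.6-fold lower than in HAFTL (adjusted p = 2.5e-06). Rag2, its partner, was at the floor of 16 in both 3 h arrays, with 1330.0 and 1252 in vehicle C10 and 2393 and 1984 in HAFTL, and was at least 29.2-fold lower (adjusted p = 4.1e-07). Dntt, the polymerase that adds untemplated bases at the joints, did otherwise. It had 105 and 92 in C10 at 3 h, 88.8 and 102 in vehicle C10 and 5292 and 5208 in HAFTL. Vehicle C10 overlapped C10 at 3 h, and both lay far below HAFTL: the log2 change was -5.74 ± 0.46 for C10 at 3 h against HAFTL (adjusted p = 3.9e-05), 0.04 against vehicle C10 (adjusted p = 0.95) and -5.78 for vehicle C10 against HAFTL (adjusted p = 3.7e-04).

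Of 9 V(D)J recombination genes tested, 6 were lower and none higher in C10 at 3 h than in HAFTL, with a median log2 change of -1.25; under spike-in scaling 3 were called lower. Among the joining factors, which also mend breaks elsewhere in the genome, Xrcc6 (Ku70) changed by -1.73 ± 0.10 on the log2 scale (-0.91 and not called under the mean of its probe sets), Prkdc, the DNA-dependent kinase, by -0.75 ± 0.09, and Lig4, the ligase, by -1.25 ± 0.36. An array of Lig4 lay under the filter level, so its value is uncertain, and its call was lost without replicate 1 of C10 at 3 h (-0.64) and without replicate 1 or 2 of HAFTL (-1.12 and -1.38). Xrcc5 (Ku80), Xrcc4 and Nhej1 did not pass the test. Against vehicle C10, 4 of the 9 were lower, and Lig4 was not among them (log2 change -0.59, adjusted p = 0.22).

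Transcripts of the pre-B cell receptor and of B cell signalling were lower in C10 at 3 h as a group. Of 17 tested, 14 were lower and none higher than in HAFTL, with a median of -1.06, and under spike-in scaling 4 were called lower. Against vehicle C10, 15 were lower, while vehicle C10 and HAFTL differed in 4 of the 17, against 15.2% over all genes tested. Cd79b, a signalling chain of the receptor, had 1447 and 1535 in C10 at 3 h, 18461 and 18823 in vehicle C10 and 19299 and 19183 in HAFTL. The 3 h arrays stood far below all others, with a log2 change of -3.69 ± 0.08 against HAFTL (adjusted p = 2.3e-07). Its partner Cd79a had 6698 and 7012 in C10 at 3 h, 12427 and 12728 in vehicle C10 and 14003 and 14676 in HAFTL, a log2 change of -1.06 ± 0.08. The surrogate light chain genes Vpreb1 and Igll1 changed by -1.10 and -1.26. With spike-in scaling Cd79a (-0.18), Vpreb1 (-0.33) and Igll1 (-0.57) were no longer called, and Igll1 was also not called under the mean of its probe sets (-1.23). Blnk, the adaptor below the receptor, changed by -2.71 ± 0.14, the surface protein Cd72 by -2.70 ± 0.09, and the inhibitory lectin Cd22 by -2.09 ± 0.15. Fcrla, an intracellular Fc receptor-like protein, had 374 and 426 in C10 at 3 h, 923 and 857 in vehicle C10 and 269.8 and 258 in HAFTL. It was lower at 3 h than in vehicle C10 (log2 change -1.16) and was not called against HAFTL (0.60, adjusted p = 0.068). Fcrla was called higher than in HAFTL under some alternatives, such as fitting only the 4 arrays compared (adjusted p = 0.027).

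The transcription factors of the B lineage had a median of -1.47, with 15 of 18 lower and 2 higher than in HAFTL, and 6 lower under spike-in scaling. Foxo1, which drives Rag and Il7r transcription in B cell precursors, had 535 and 610.1 in C10 at 3 h, 6905 and 6898 in vehicle C10 and 6416 and 7078 in HAFTL. The vehicle arrays lay among those of HAFTL and the 3 h arrays far below, with a log2 change of -3.56 ± 0.11 (adjusted p = 8.0e-07). Bcl11a, a zinc finger factor needed for B cell development, changed by -3.77 ± 0.16, Sox4, an HMG-box factor of pro-B cells, by -3.29 ± 0.11, and Lef1, a Wnt pathway factor, by -2.77 ± 0.09. Pax5, which holds cells in the B lineage, had 78.4 and 72.6 in C10 at 3 h, 426 and 556 in vehicle C10 and 552 and 467 in HAFTL. Its log2 change of -2.75 ± 0.29 is uncertain because 1 of the 3 h arrays lay under the filter level. Ebf1, which acts with Pax5, had 2302 and 2498 in C10 at 3 h, 8155 and 7222 in vehicle C10 and 8469.8 and 7588 in HAFTL, a change of -1.74 ± 0.13 that was not called with spike-in scaling (-0.87). The 2 that were higher were Ets1 (0.88 ± 0.09) and Myb (0.58 ± 0.08), both also needed in early haematopoietic cells. Irf4 did not pass the test.

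Il7r, the receptor chain for interleukin 7 on which B cell precursors depend, had 1772 and 1659 in C10 at 3 h, 12927 and 11842 in vehicle C10 and 16583 and 14997 in HAFTL. The 3 h arrays lay far below the rest, a log2 change of -3.20 ± 0.11 (adjusted p = 8.8e-07). Of 7 lymphoid cytokine receptor and survival genes tested, 4 were lower and none higher, with a median of -1.30; Tnfrsf13c, the receptor for BAFF, changed by -2.87 ± 0.14.

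The other leading falls were spread over signalling and transcription. Cbfa2t3, a corepressor, was at 16 in both 3 h arrays, with 982 and 889 in vehicle C10 and 956 and 846 in HAFTL, at least 12-fold lower (adjusted p = 8.0e-07). Gem, a small GTPase, had 54.2 and 53.8 in C10 at 3 h, 1302 and 1414 in vehicle C10 and 2342 and 2799 in HAFTL, and was at least 34.3-fold lower. Vehicle C10 lay on the side of HAFTL for both. Dusp2, a phosphatase of MAP kinases, had 238 and 265 in C10 at 3 h, 2703 and 2462 in vehicle C10 and 6262 and 5929 in HAFTL, a log2 change of -4.60 ± 0.21. Tmem119, a membrane protein, changed by -4.76 ± 0.14, Snn, stannin, by -4.78 ± 0.13, Tbc1d10c, a regulator of Ras and calcineurin in lymphocytes, by -4.40 ± 0.11, and the unnamed gene 2900026A02Rik by -4.34 ± 0.11. Zkscan16, a zinc finger gene, changed by -4.61 ± 0.70, which is uncertain because 1 of the 3 h arrays lay under the filter level.

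**Figure D2:**
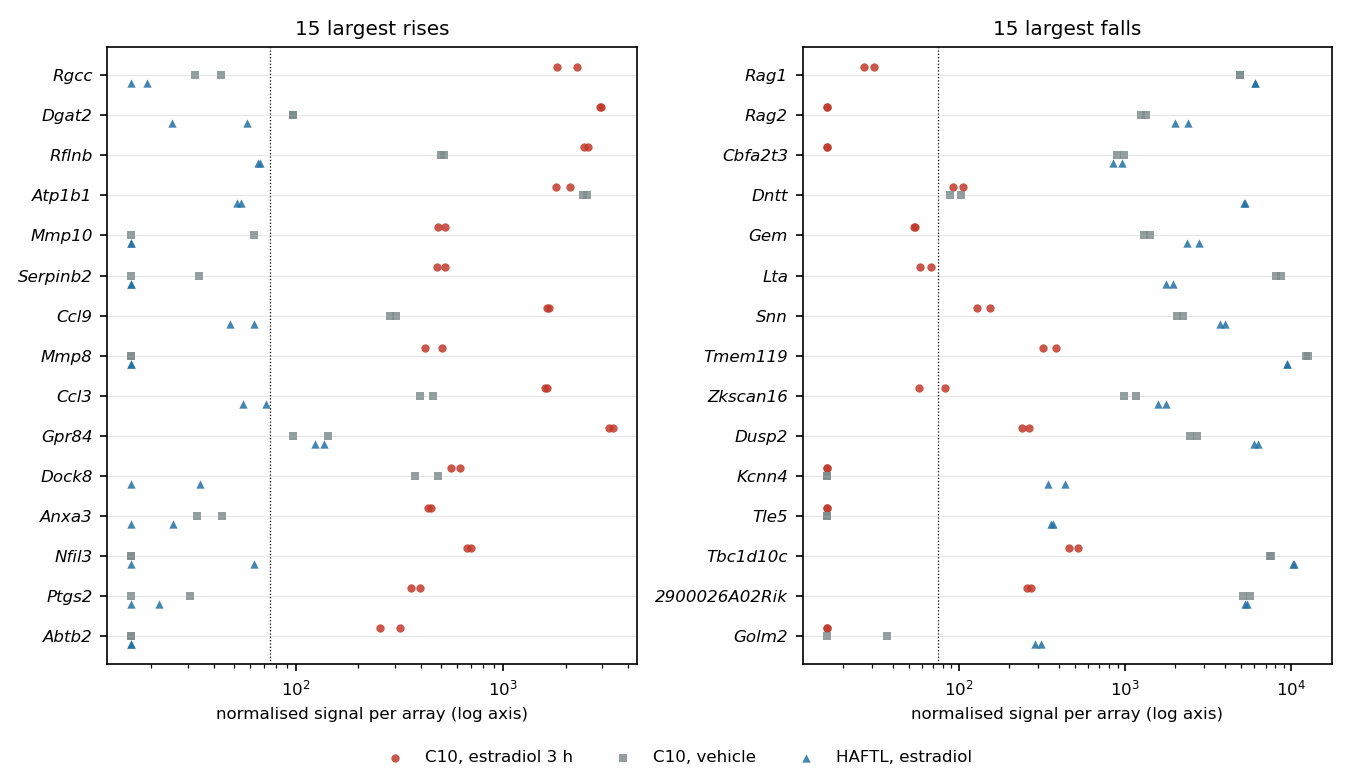
Normalised signal per array (log axis) of the 15 largest rises (left) and 15 largest falls (right) among genes called in C10 at 3 h against HAFTL; each symbol is 1 array, for C10 with estradiol for 3 h, vehicle C10 and HAFTL with estradiol, and the dotted line is the filter level of 74.65. The vehicle arrays lie with HAFTL for Mmp8 and Rag1, with C10 at 3 h for Atp1b1, Dock8, Dntt, Kcnn4 and Tle5, and in between for Rflnb, Ccl9 and Ccl3.

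Not every difference from HAFTL was present only after estradiol, and vehicle C10 already stood at the 3 h level for some of the largest. Atp1b1, a subunit of the sodium pump, had 2092 and 1793 in C10 at 3 h, 2419 and 2527 in vehicle C10 and 51.7 and 54.3 in HAFTL. It was at least 25.9-fold higher than in HAFTL at 3 h (adjusted p = 2.3e-07) and at least 33.1-fold higher in vehicle C10 (adjusted p = 1.4e-07), while at 3 h it was lower than in vehicle C10 (log2 change -0.35, adjusted p = 0.01). Dock8, an exchange factor for small GTPases in leukocytes, had 619 and 559 in C10 at 3 h, 373 and 483 in vehicle C10 and 16 and 34.2 in HAFTL, at least 7.89-fold and 5.68-fold higher than in HAFTL. Afap1, an actin filament protein, had 648 and 604 in C10 at 3 h, 472 and 461 in vehicle C10 and 49.2 and 59.1 in HAFTL, and Garem1, an adaptor of growth factor receptors, 625 and 514 in C10 at 3 h, 554 and 602 in vehicle C10 and 57.9 and 40.1 in HAFTL. Neither was called between C10 at 3 h and vehicle C10 (adjusted p = 0.087 and 0.95), and at 3 h they were at least 8.38-fold and 7.59-fold higher than in HAFTL. The chemokine gene Ccl6 and the factor gene Sall3, both at 16 in HAFTL, were at least 2.77-fold and 3.38-fold higher at 3 h. In vehicle C10 their signals were 161 and 135 for Ccl6 and 205 and 173 for Sall3, all above the filter level, and both genes were also higher at 3 h than in vehicle C10 (log2 change 0.49 and 0.42).

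Falls of this kind included Dntt, given above. Kcnn4, a calcium-activated potassium channel, was at 16 in all 4 C10 arrays and at 438 and 343 in HAFTL, at least 5.19-fold lower at 3 h. Tle5, a corepressor of the Groucho family, was likewise at 16 in all 4 and at 357 and 368 in HAFTL. Golm2, a Golgi protein, and Tceal8 were at least 4-fold and 4.68-fold lower at 3 h than in HAFTL, and neither was called against vehicle C10. Kcnn4, Tle5, Golm2 and Tceal8 exceeded the filter level in the HAFTL arrays alone, so a difference was required for them to be tested and their values are a description. Sh3gl3, an endophilin, had 101 and 16 in C10 at 3 h, 69.7 and 30.3 in vehicle C10 and 743 and 716 in HAFTL, and its change of -4.18 ± 0.87 is uncertain because 1 of the 3 h arrays was dim.

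MHC class II genes, which present antigen on B cells and macrophages, split in the comparison with HAFTL. Of 9 tested, 4 were higher and 4 lower in C10 at 3 h, with a median of 0.09 that turned to -0.16 on the deposited values. H2-Aa, the alpha chain of the A molecule, had 1123 and 1204 in C10 at 3 h, 1215 and 1324 in vehicle C10 and 117 and 93.7 in HAFTL. H2-Eb1, the beta chain of the E molecule, had 1389 and 1308 in C10 at 3 h, 1358 and 1433 in vehicle C10 and 281 and 263 in HAFTL. For both, the C10 groups lay together and far above HAFTL: the log2 change at 3 h was 3.47 ± 0.28 and 2.31 ± 0.11 against HAFTL, and -0.13 and -0.05 against vehicle C10 (adjusted p = 0.75 and 0.75). H2-Ab1 and H2-DMb2 were also higher than in HAFTL, by 1.94 and 1.08 on the log2 scale. Other members of the list were lower. H2-Ob, a chain of the modulator H2-O, had 677 and 597 in C10 at 3 h, 3088 and 2942 in vehicle C10 and 3933 and 4114 in HAFTL, a log2 change of -2.66 ± 0.12 against HAFTL, and its partner H2-Oa changed by -2.10 ± 0.16. Cd74, the invariant chain, had 3310.0 and 3374 in C10 at 3 h, 11051 and 12142 in vehicle C10 and 4419 and 4802 in HAFTL. Vehicle C10 was highest and C10 at 3 h lowest, with log2 changes at 3 h of -0.46 against HAFTL and -1.79 against vehicle C10. Ciita, the master regulator of these genes, was under the filter level in the 3 h and HAFTL arrays and was not called between them.

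**Figure D3:**
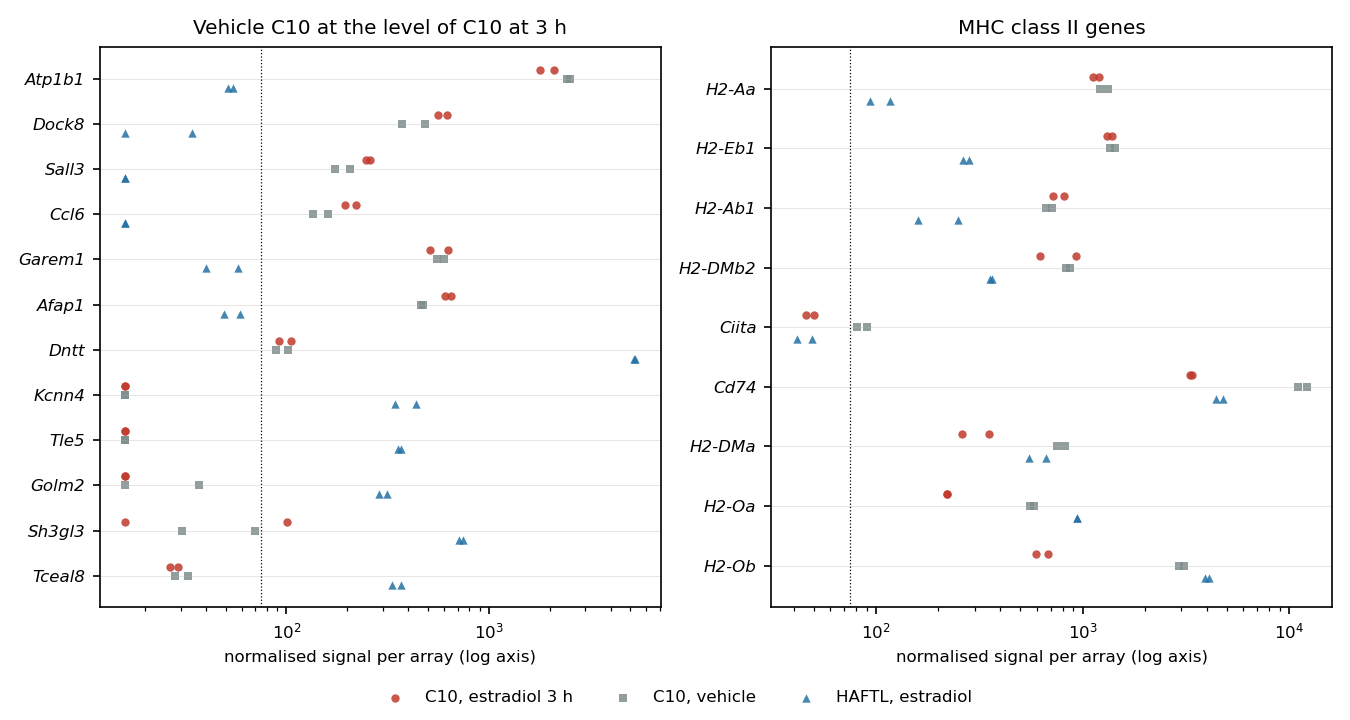
Normalised signal per array (log axis) of 12 genes for which vehicle C10 stood at the level of C10 at 3 h (left) and of the 9 MHC class II genes tested (right), each symbol 1 array, with the dotted line at the filter level of 74.65. Both C10 groups lie above HAFTL for H2-Aa, H2-Eb1, H2-Ab1 and H2-DMb2, while H2-Oa, H2-Ob and H2-DMa were lowest in C10 at 3 h.

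For other genes vehicle C10 lay between the other groups or outside them, so that the choice of control set the size or the sign of the change. The chemokine gene Ccl9 had 1628 and 1657 in C10 at 3 h, 305 and 285 in vehicle C10 and 62.4 and 48.1 in HAFTL. Ccl3, another chemokine gene, had 1589.5 and 1621 in C10 at 3 h, 395 and 458 in vehicle C10 and 55.2 and 71.3 in HAFTL, and Rflnb, an actin regulator, 2448 and 2553 in C10 at 3 h, 501 and 517 in vehicle C10 and 67.3 and 65.2 in HAFTL. In all 3, the vehicle arrays were above HAFTL and below C10 at 3 h without overlap. At 3 h, Ccl9 was at least 22-fold, Ccl3 at least 21.5-fold and Rflnb at least 33.5-fold higher than in HAFTL, and the log2 changes against vehicle C10 were 2.48, 1.92 and 2.30.

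Lta, which encodes lymphotoxin alpha, had 58.4 and 67.7 in C10 at 3 h, 8117 and 8714 in vehicle C10 and 1936 and 1771 in HAFTL. It was at least 24.8-fold lower at 3 h than in HAFTL (adjusted p = 2.8e-06), and vehicle C10 stood above both. The vehicle arrays were also the highest for Cd5, a surface receptor of T cells and some B cells, with 417 and 468 in C10 at 3 h, 2277 and 2216 in vehicle C10 and 311 and 279 in HAFTL. Cd5 was higher at 3 h than in HAFTL (log2 change 0.59 ± 0.14, which missed the threshold without replicate 2 of C10 at 3 h, at 0.501, or of HAFTL, at 0.508) and lower than in vehicle C10 (-2.35 ± 0.14, adjusted p = 9.3e-06). Pmaip1, which encodes the cell death protein Noxa, had 1159 and 1178 in C10 at 3 h, 2038 and 2574 in vehicle C10 and 441 and 394 in HAFTL, with changes of 1.49 ± 0.12 against HAFTL and -0.97 ± 0.12 against vehicle C10.

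Lyz2, the lysozyme gene of macrophages, turned the opposite way. It had 555 and 561 in C10 at 3 h, 171 and 229.9 in vehicle C10 and 831 and 949 in HAFTL, without overlap between the groups. Against HAFTL it was lower at 3 h, with a log2 change of -0.67 ± 0.14 (adjusted p = 0.0045), and against vehicle C10 it was higher, with 1.49 ± 0.14 (adjusted p = 8.2e-05). With spike-in scaling the change against HAFTL was -0.10 and not called.

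Genes of DNA replication and mitosis were called higher in C10 at 3 h with 1 exception, which was itself called under several alternatives. All 26 genes of the G1/S transition and DNA replication that were tested were called higher in C10 at 3 h than in HAFTL, the smallest by 0.41 (Rfc3, of the clamp loader) and the largest by 3.82 (Ccne1, cyclin E1), with a median of 1.97 against -0.06 over all genes. The call of Rfc3 was lost without replicate 1 of C10 at 3 h (0.33) or replicate 2 of HAFTL (0.34). Ccne1 had 1736 and 1945 in C10 at 3 h, 152 and 225 in vehicle C10 and 103 and 165 in HAFTL. The 3 h arrays stood far above the others, among which vehicle C10 and HAFTL overlapped, and the log2 change was 3.82 ± 0.29 (adjusted p = 2.7e-05). Cdc6, which loads the replicative helicase, had 2308 and 2373 in C10 at 3 h, 367 and 406 in vehicle C10 and 251 and 246 in HAFTL, a change of 3.23 ± 0.59. The SE is pooled over all 6 groups, and the 24 h arrays of Cdc6 read 20.2 and 87.3. Mcm3, a subunit of that helicase, had 9963 and 9726 in C10 at 3 h, 2346 and 2308 in vehicle C10 and 1649 and 1773 in HAFTL, a change of 2.53 ± 0.12; the other helicase genes Mcm2, Mcm4, Mcm5, Mcm6 and Mcm7 changed by between 1.41 and 2.36. The ribonucleotide reductase genes Rrm1 and Rrm2 changed by 2.53 ± 0.12 and 2.48 ± 0.14, and Fen1, the flap endonuclease, by 3.03 ± 0.21. E2f1, which activates this group, had 817 and 669 in C10 at 3 h, 197 and 149 in vehicle C10 and 182 and 159 in HAFTL, a change of 2.12 ± 0.17.

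In the mitosis list, 23 of 24 were called higher, with a median of 1.69; Bub1b, a checkpoint kinase, was not (1.5 ± 0.64, adjusted p = 0.087). Bub1b was called higher when only the 4 arrays compared were fitted (adjusted p = 0.0075). It was also called higher with a floor of 64, under spike-in scaling (2.23) and under median centring (1.78), among others. Cdk1, the mitotic kinase, had 10596 and 9683 in C10 at 3 h, 1972 and 2001 in vehicle C10 and 1796 and 1658 in HAFTL, a log2 change of 2.55 ± 0.15 (adjusted p = 9.6e-06). Its cyclin Ccna2 changed by 2.04 ± 0.08, Anln, the anillin of the cleavage furrow, by 2.36 ± 0.11, Top2a by 2.10 ± 0.11, and the proliferation marker Mki67 by 1.35 ± 0.09. Vehicle C10 stood near HAFTL for both lists, with medians of 0.21 and 0.15 against HAFTL, where 2 of 26 and 3 of 24 were called. Between vehicle C10 and HAFTL, 15.2% were called over all genes tested. At 3 h against vehicle C10, 26 of 26 and 23 of 24 were higher, with medians of 1.64 and 1.49.

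D-type cyclins and several inhibitors of cyclin-dependent kinases were lower at the same time. Ccnd2 had 196 and 195 in C10 at 3 h, 831 and 770.1 in vehicle C10 and 875 and 863 in HAFTL, a log2 change of -2.15 ± 0.08 (adjusted p = 1.0e-06), Ccnd1 changed by -1.93 ± 0.07 and Ccnd3 by -1.17 ± 0.08. The inhibitor Cdkn1a (p21) had 547 and 641 in C10 at 3 h, 1760.5 and 2075 in vehicle C10 and 1511 and 1466 in HAFTL, a change of -1.33 ± 0.12. Cdkn2c (p18) and the pocket protein genes Rbl1 and Rb1 were higher, by 1.54 ± 0.17, 1.31 ± 0.10 and 0.73 ± 0.08; Rb1 was also higher in vehicle C10 than in HAFTL (0.79) and was not called at 3 h against vehicle C10. Of 14 tested, 9 were lower and 4 higher than in HAFTL, and the median of -0.52 became 0.10 with spike-in scaling, where 1 was called lower and Ccnd1, Ccnd3 and Cdkn1a were no longer called.

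Myc, which promotes growth and division, had 1258 and 1327 in C10 at 3 h, 7676 and 7956 in vehicle C10 and 7834 and 7717 in HAFTL. The vehicle and HAFTL arrays overlapped and the 3 h arrays lay far below, with a log2 change of -2.59 ± 0.07 (adjusted p = 4.9e-07). Mycn was bright in every group and was not called (0.06 ± 0.06), but under the mean of its probe sets it was called lower (-1.18). Mxd4, a Myc antagonist, was lower, with a log2 change of -3.13 ± 0.13. The Myc and ribosome biogenesis list as a whole had 6 of 24 higher and 4 lower and a median of 0.13. Over all genes tested 22.3% were higher and 27.8% lower. Rrp12 (1.42) was among the higher, Gnl3 (-0.69) and Odc1 (-0.73) among the lower.

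**Figure D4:**
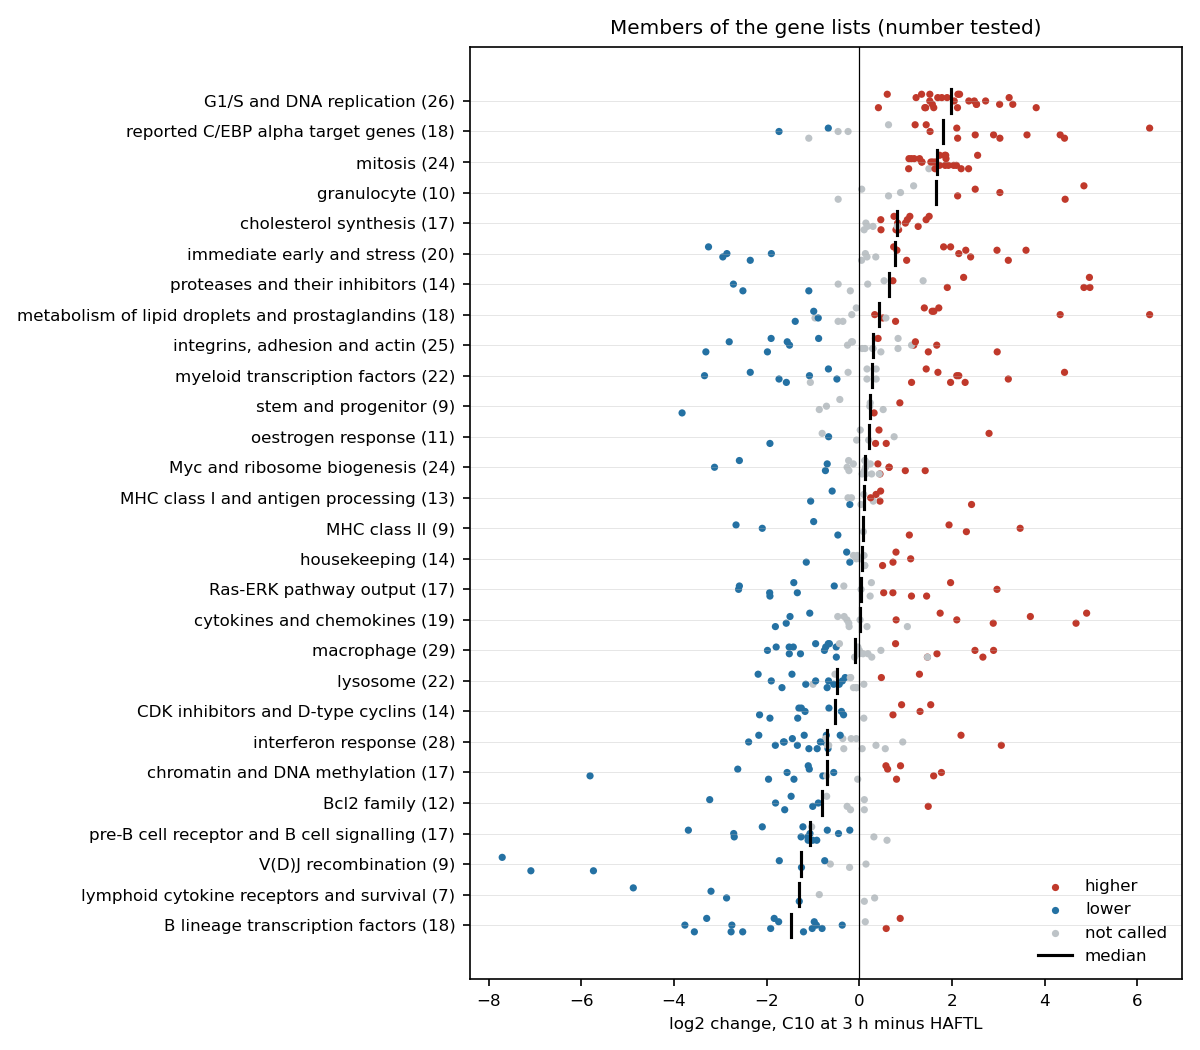
Log2 change in C10 at 3 h minus HAFTL (horizontal axis) of every tested member of 28 gene lists, ordered by median, with the number tested in brackets. Red and blue points were called higher and lower, grey points were not called, and the black bar is the median: replication, mitosis and reported C/EBPα targets sit right of 0, and B lineage factors, cytokine receptors and V(D)J recombination left of it.

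Genes of cholesterol synthesis were higher than in HAFTL, with 12 of 17 called higher, none lower and a median of 0.82. Idi1, an isomerase of the pathway, had 5748 and 5929 in C10 at 3 h, 1414 and 1266 in vehicle C10 and 2465 and 2378 in HAFTL. Hmgcs1, the synthase that makes HMG-CoA, had 10648 and 10530.1 in C10 at 3 h, 3295 and 3326 in vehicle C10 and 4862 and 5085 in HAFTL. In both, C10 at 3 h was highest and vehicle C10 lowest without overlap, so the log2 change at 3 h was 1.27 ± 0.09 and 1.09 ± 0.08 against HAFTL and 2.13 and 1.68 against vehicle C10. For the list, vehicle C10 had 9 genes lower than HAFTL and none higher (median -0.46), and C10 at 3 h had 15 higher than vehicle C10 (median 1.21). Sc5d, a desaturase late in the pathway, was at 1.51 ± 0.13 against HAFTL, but at 0.46 and not called under the mean of its probe sets, and Insig1, which restrains it, was not called against HAFTL (0.14 ± 0.07) but was higher than in vehicle C10 (0.85). Under median centring (0.46) and on the deposited values (0.21), Insig1 was called higher than in HAFTL.

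Genes reported elsewhere as C/EBPα targets had 12 of 18 higher and 2 lower, against 22.3% and 27.8% over all genes tested. Their median was 1.81 over HAFTL, 2.00 over vehicle C10 and -0.24 between vehicle C10 and HAFTL. The list was chosen with earlier results of these data known, so its counts are a description and no independent support. Besides Dgat2, Nfil3 and Ptgs2, they included Hsd11b1, which regenerates active glucocorticoid, with 2256 and 2032 in C10 at 3 h, 153 and 124 in vehicle C10 and 244 and 124 in HAFTL. The 3 h arrays lay far above all others, a log2 change of 3.62 ± 0.27 (adjusted p = 2.7e-05). Trib1, a pseudokinase that lowers C/EBPα protein, changed by 1.53 ± 0.12, and Gfi1, a transcriptional repressor that acts in granulocyte development, by 1.44 ± 0.15. Il6ra, the interleukin 6 receptor, was higher than in HAFTL (1.20 ± 0.15) and was not called against vehicle C10 (0.06), which also lay above HAFTL. The 2 that were lower were Id2, an inhibitor of E proteins (-1.73 ± 0.12), and Lyz2.

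Of 10 granulocyte genes tested, 5 were higher and none lower, with a median of 1.65, but the defining ones stayed dim. Hp, haptoglobin, had 299 and 158 in C10 at 3 h, 28 and 16 in vehicle C10 and 43.9 and 16 in HAFTL, at least 2.91-fold higher than in HAFTL (adjusted p = 0.0015). Lcn2, lipocalin 2, had 96.4 and 189.9 in C10 at 3 h, 16 and 33 in vehicle C10 and 26 and 22 in HAFTL, at least 1.81-fold higher. Camp, cathelicidin, was at 16 in vehicle C10 and HAFTL and under the filter level, at 65 and 74.6, in C10 at 3 h. Its call as higher than in HAFTL (log2 change 2.12) rested on the floor and was lost with a floor of 64 (0.12). Of 8 defining granulocyte markers, none lay above the filter level in both arrays of any of the 3 groups, and their summed signal was 376 and 358 in C10 at 3 h, 292 and 263 in vehicle C10, and 258 and 191 in HAFTL.

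Macrophage genes did not move one way. Of 29 tested, 6 were higher and 13 lower than in HAFTL, against 22.3% and 27.8% over all genes tested. The share higher was thus close to that over all genes, and the share lower was above it. The median of -0.10 became 0 with spike-in scaling, where 7 were called higher and 1 lower. Tlr2, a receptor for bacterial lipoproteins, had 1341 and 1187 in C10 at 3 h, 309.6 and 288 in vehicle C10 and 247 and 159.8 in HAFTL, a log2 change of 2.67 ± 0.18 (adjusted p = 1.7e-05). Cybb, a subunit of the phagocyte oxidase, had 10156 and 8858 in C10 at 3 h, 2309 and 2557 in vehicle C10 and 3003 and 2933 in HAFTL, a change of 1.68 ± 0.09. In both, the 3 h arrays were above all others. Cd14, the co-receptor for endotoxin, had 322 and 288 in C10 at 3 h, 66.2 and 39.7 in vehicle C10 and 20.1 and 83.2 in HAFTL, and its change of 2.90 ± 0.57 is uncertain because 1 HAFTL array lay above the filter level. Fcer1g, the common gamma chain of Fc receptors, was at least 2.8-fold higher than in HAFTL at 3 h and was not called against vehicle C10. Among the lower genes were Clec7a, the receptor for beta-glucan, at 646 and 569 in C10 at 3 h, 838 and 961 in vehicle C10 and 2335 and 2460.3 in HAFTL (log2 change -1.98 ± 0.09), Mrc1, the mannose receptor (-1.51 ± 0.26), and Tlr4 (-1.27 ± 0.12). Csf1r, the receptor for macrophage colony-stimulating factor, had 212 and 151 in C10 at 3 h, 190.0 and 215 in vehicle C10 and 244 and 262 in HAFTL, a change of -0.50 ± 0.16 that missed the threshold without replicate 2 of C10 at 3 h (-0.25) and without replicate 1 or 2 of HAFTL (-0.55 and -0.45). Itgam, which encodes CD11b, was under the filter level in all of these arrays.

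Among myeloid transcription factors, 9 of 22 were higher and 7 lower, with a median of 0.26, and 9 and 2 with spike-in scaling. Over all genes tested, 22.3% were higher and 27.8% lower. The share higher was thus above that over all genes, and the share lower close to it. Spi1, which encodes PU.1, had 2889 and 2782 in C10 at 3 h, 1570.3 and 1369.7 in vehicle C10 and 1371 and 1228 in HAFTL, with the 3 h arrays above all others and a log2 change of 1.13 ± 0.09 (adjusted p = 3.8e-05). Hlx, a homeobox factor, changed by 2.28 ± 0.10 and Mitf, a factor of mast cells and osteoclasts, by 2.10 ± 0.22. Cebpb, a relative of Cebpa active in macrophages, was lower (-1.08 ± 0.16, adjusted p = 0.001) but was not called with spike-in scaling (-0.44), Cebpd was not called (-0.24 ± 0.17), and Irf5, a factor of inflammatory macrophages and B cells, had 216 and 195 in C10 at 3 h, 2058 and 1988 in vehicle C10 and 2090.1 and 2063 in HAFTL, a change of -3.34 ± 0.09. On the deposited values Cebpd was called lower (-0.49).

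Immediate early genes, which respond within minutes to growth factors and stress, were called in both directions, 11 of 20 higher and 5 lower, with a median of 0.78. Dusp1, a MAP kinase phosphatase, had 1251 and 1240.2 in C10 at 3 h, 92.9 and 140.2 in vehicle C10 and 132 and 80.5 in HAFTL, a log2 change of 3.60 ± 0.27 (adjusted p = 2.6e-05). Egr1 had 15674 and 17975 in C10 at 3 h, 3642 and 3678 in vehicle C10 and 4219.6 and 4352 in HAFTL, a change of 1.97 ± 0.09, and Fos, Nr4a1 and Ier3 changed by 2.15 ± 0.09, 2.30 ± 0.10 and 2.97 ± 0.12. For these 5, both 3 h arrays lay above the 4 others. Egr2 and Egr3 differed from them: Egr2 had 1024 and 1025 in C10 at 3 h, 652 and 681 in vehicle C10 and 98.7 and 123 in HAFTL, and Egr3 279.6 and 299.9 in C10 at 3 h, 509.5 and 544 in vehicle C10 and 52.9 and 56.8 in HAFTL. Against HAFTL, Egr2 changed by 3.22 ± 0.12 and Egr3 was at least 3.88-fold higher (not called under the mean of its probe sets, log2 change 1.09), while against vehicle C10 the changes were 0.62 and -0.86. The genes that were lower were Ier5 (-3.26 ± 0.10), Btg2 (-2.95 ± 0.17), Jund (-2.86 ± 0.17), Jun (-2.35 ± 0.17) and Ddit3 (-1.90 ± 0.09), whose probe sets disagreed in direction.

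Output of the Ras-ERK pathway, which the oncogene of both lines drives, was split, 6 of 17 higher and 7 lower with a median of 0.04. Beside this list and the oestrogen list below stand 22.3% higher and 27.8% lower over all genes tested. The phosphatase genes Dusp5 and Dusp4 changed by -2.61 ± 0.17 and -1.94 ± 0.09, and Etv5, an Ets factor, by -1.34 ± 0.11. Of 11 genes of the oestrogen response, 4 were higher and 2 lower, and the median of 0.20 turned to -0.05 on the deposited values. Besides Esr1, Igfbp4 was higher (0.42) and Ebag9 lower (-0.66); Pgr, the progesterone receptor gene, was not called.

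Of 19 cytokine and chemokine genes, 7 were higher and 4 lower, against 22.3% and 27.8% over all genes tested. Il1b, interleukin 1 beta, had 386 and 427 in C10 at 3 h, 63.8 and 51.9 in vehicle C10 and 62.6 and 47.9 in HAFTL, at least 5.44-fold higher than in HAFTL (adjusted p = 5.5e-06). Il18 (-1.81 ± 0.15), Tgfb1 (-1.58 ± 0.13) and Vegfa (-1.50 ± 0.15) were lower, and Tnf was not called against HAFTL (-0.27 ± 0.24). The median, 0.02, was below 0 on the deposited values and under median centring (-0.13 and -0.03). With spike-in scaling 7 were higher and none lower, and the calls of Il18 (-1.24), Tgfb1 (-0.70) and Vegfa (-0.82) were lost. Of 14 proteases and inhibitors, 6 were higher and 3 lower, with a median of 0.63. Slpi, an inhibitor of leukocyte elastase, had 7339 and 7578 in C10 at 3 h, 8883 and 8849 in vehicle C10 and 2210.4 and 1809.8 in HAFTL, so it was above HAFTL in both C10 groups (1.90 ± 0.10 at 3 h). Cst7, cystatin F, had 357 and 404 in C10 at 3 h, 905 and 908 in vehicle C10 and 2291 and 2055 in HAFTL, a change of -2.51 ± 0.09.

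In lipid droplet and prostaglandin metabolism, 9 of 18 were higher and 3 lower, with a median of 0.42. Pla2g4a, which releases arachidonic acid for Ptgs2, changed by 1.61 ± 0.09, Fabp5, a fatty acid carrier, by 1.57 ± 0.08, and Apoe, apolipoprotein E, by 1.40 ± 0.18. Alox5ap, of leukotriene synthesis, was lower (-0.98 ± 0.10), as was the droplet protein gene Plin3 (-1.38 ± 0.25). With spike-in scaling 7 of the list were higher and none lower, and the calls of Alox5ap (-0.37) and Plin3 (-0.93) were lost.

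Of 25 adhesion and cytoskeleton genes, 6 were higher and 7 lower, shares close to those over all genes tested (22.3% and 27.8%). Their median of 0.29 became -0.04 when the filter used only the 4 arrays compared. Anxa1, a lipid-binding protein of phagocytes, had 18039 and 17076 in C10 at 3 h, 1442 and 1582 in vehicle C10 and 2337 and 2129 in HAFTL, with the 3 h arrays far above the rest and a log2 change of 2.98 ± 0.10 (adjusted p = 8.0e-07). Vcl, vinculin, and Cd44, the hyaluronan receptor, changed by 1.21 ± 0.08 and 1.18 ± 0.12. Selplg, the selectin ligand, had 431 and 400.4 in C10 at 3 h, 4424 and 4446 in vehicle C10 and 4054 and 4205 in HAFTL, a change of -3.31 ± 0.07, and Icam1 changed by -1.98 ± 0.09. S100a4 was lower in both C10 groups than in HAFTL, with 72 and 54.7 at 3 h, 84.5 and 91.4 in vehicle C10 and 469 and 412 in HAFTL, at least 5.89-fold lower at 3 h.

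Interferon response genes had 15 of 28 lower and 2 higher, with a median of -0.70, and 4 were called lower under spike-in scaling. Beside this list and the lysosome list below stand 27.8% lower and 22.3% higher over all genes tested. Ddx58, which encodes the RNA sensor RIG-I, had 234 and 239.9 in C10 at 3 h, 766 and 674 in vehicle C10 and 789 and 674 in HAFTL, a log2 change of -1.62 ± 0.11 (adjusted p = 1.8e-05), and the antiviral factor gene Trim30a changed by -1.09 ± 0.10. The 2 that were higher were dim in HAFTL: Ifi202b, at 16 in both HAFTL arrays, was at least 1.79-fold higher, and Oas2 at least 1.18-fold, with 1 of the 3 h arrays under the level. Of 22 lysosome genes, 12 were lower and 2 higher and the median of -0.48 became 0.08 with spike-in scaling, where 2 were called lower; Lgmn, legumain, changed by -2.18 ± 0.15, Neu1, a sialidase, by -1.90 ± 0.13 (-0.80 and not called under the mean of its probe sets), and Ctsc, cathepsin C, by 1.30 ± 0.06. MHC class I and antigen processing genes had 5 of 13 higher and 3 lower than in HAFTL, with a median of 0.10. Over all genes tested the shares were 22.3% and 27.8%. Nlrc5, which activates class I genes, had 928 and 985 in C10 at 3 h, 603 and 641 in vehicle C10 and 177 and 179.8 in HAFTL, a change of 2.42 ± 0.08 at 3 h and 1.80 in vehicle C10. In vehicle C10, 8 of the 13 were above HAFTL and none below, and at 3 h 8 were lower than in vehicle C10.

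Among Bcl2 family genes, which govern cell death, 6 of 12 were lower than in HAFTL and Pmaip1 alone was higher, with a median of -0.80. Beside this list and the chromatin and progenitor lists below stand 22.3% higher and 27.8% lower over all genes tested. Bmf, a death-promoting member, had 589 and 457 in C10 at 3 h, 4831 and 4489 in vehicle C10 and 4756 and 4973 in HAFTL, a log2 change of -3.23 ± 0.16 (adjusted p = 3.8e-06). Bcl2l11, which encodes Bim, and the survival gene Bcl2l1 changed by -1.61 ± 0.08 and -1.47 ± 0.12, and Bcl2 itself was not called. With spike-in scaling 2 of the 12 were lower, and Bcl2l11 (-0.84) and Bcl2l1 (-0.79) were no longer called. Chromatin genes were split, 6 of 17 higher and 9 lower with a median of -0.71: Dnmt1, the maintenance methyltransferase, changed by 1.77 ± 0.09 and Ezh2, of the Polycomb complex, by 1.60 ± 0.08, against -2.62 ± 0.14 for the deacetylase gene Hdac7, -1.56 ± 0.11 for the demethylase gene Kdm6b and -1.08 ± 0.13 for Dnmt3a. With spike-in scaling 5 were higher and 3 lower, and Kdm6b (-0.94) and Dnmt3a (-0.47) were no longer called. Of 9 stem and progenitor genes, Erg, an Ets factor, was lower (-3.83 ± 0.14), Tal1 and Lmo2 were higher (0.87 ± 0.19 and 0.32 ± 0.07), and the median of 0.23 turned to -0.36 on the deposited values.

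**Figure D5:**
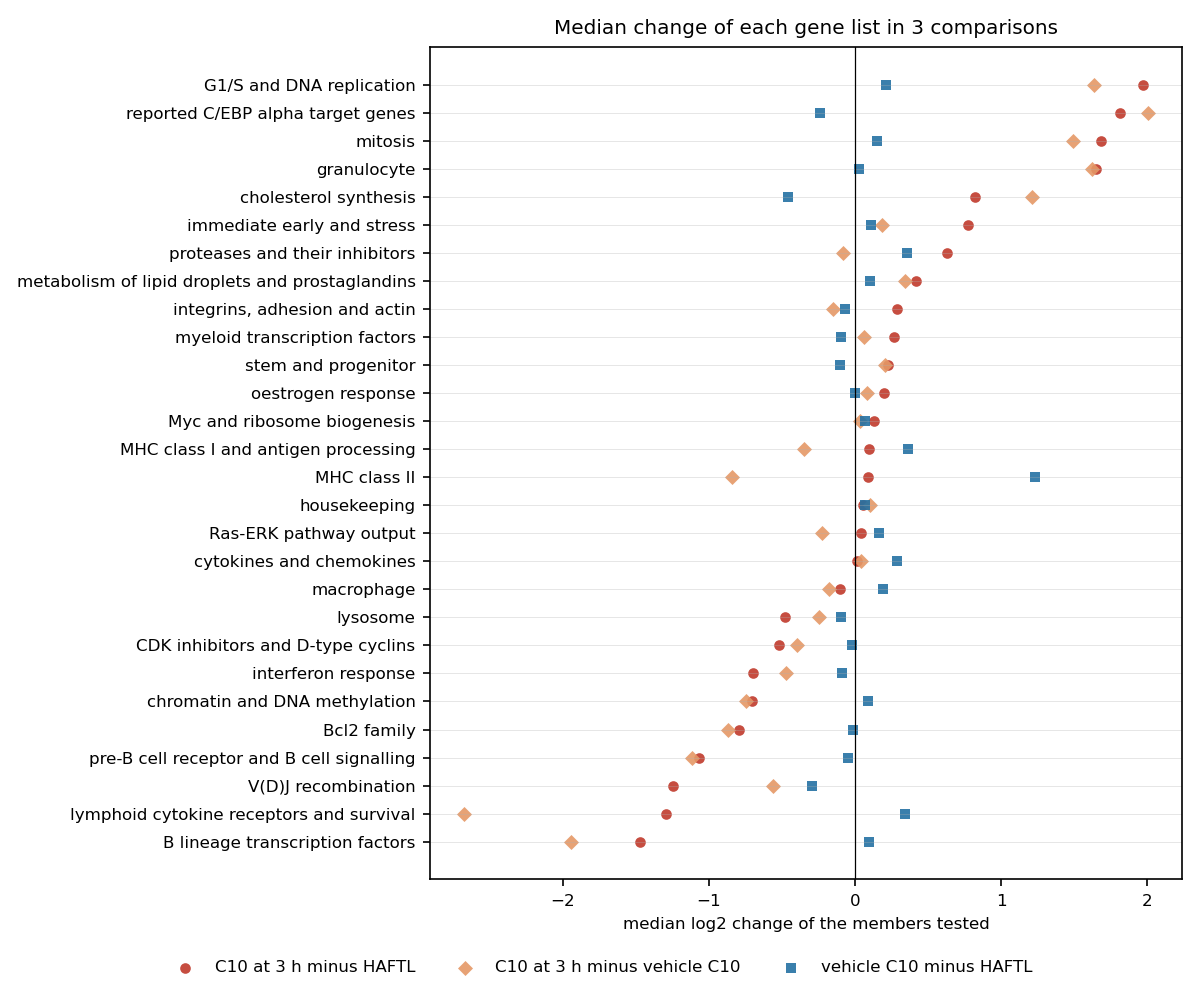
Median log2 change (horizontal axis) of the tested members of each gene list in 3 comparisons: C10 at 3 h minus HAFTL (circles), C10 at 3 h minus vehicle C10 (diamonds) and vehicle C10 minus HAFTL (squares). The comparisons share arrays; the squares lie near 0 for replication and B lineage factors, below 0 for cholesterol synthesis and well above 0 for MHC class II.

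Lists of unrelated cells had few genes tested, so their counts of calls are small. Over all genes tested 50% were called, 22.3% higher and 27.8% lower. Of the genes tested, 1 of 5 was higher (Cd5) and 1 lower for T and NK cells, 2 of 3 were lower for erythroid cells, 1 of 5 for dendritic cells and 1 of 5 for stroma, and the 1 mast cell gene tested was not called. Of the defining markers of T and NK cells, erythroid cells, stroma and mast cells, the ones above the filter level in both arrays of C10 at 3 h were Cd8a, Epor and Pdgfrb, and none of these was called higher than in HAFTL, except Cd8a without replicate 1 of HAFTL (log2 change 1.16). The summed signal of the 6 T and NK markers with a probe set was 213 and 194 in C10 at 3 h, 219 and 253 in vehicle C10, and 230.2 and 223 in HAFTL, with Cd4 at 16 throughout, and that of the 5 mast cell markers was 127 and 194 in C10 at 3 h, 179 and 176 in vehicle C10, and 166 and 158 in HAFTL, with Mcpt4 at 16. That of the 4 erythroid markers was 179.8 and 282 in C10 at 3 h, 196 and 214 in vehicle C10, and 201 and 312 in HAFTL, with Alas2 at 16. The 6 stroma markers summed to 296 and 275 in C10 at 3 h, 331 and 353 in vehicle C10, and 465 and 464 in HAFTL. The 8 macrophage markers summed to 1928 and 1662 in C10 at 3 h, 1290.0 and 1359 in vehicle C10, and 1754 and 1977 in HAFTL. Genes of the Y chromosome were read in every group: Eif2s3y had 1920.5 and 2337 in C10 at 3 h, 3632 and 4122 in vehicle C10 and 4262 and 4379 in HAFTL, lower at 3 h by a log2 change of -1.03 ± 0.11, and Uty was lower as well (-1.25); of 4 genes read in 1 sex, 3 were lower and none higher, while none was called with spike-in scaling, where Eif2s3y was at -0.21 and Uty at -0.67. Of 14 housekeeping genes, 4 were higher and 3 lower, against 22.3% and 27.8% over all genes tested. Their median was 0.06, and -0.07 on the deposited values.

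The later arrays of C10 with estradiol show how some of these levels went on. Rgcc had 1651 and 1693 in the 12 h arrays, 93.3 and 120.2 in the 24 h arrays and 80.5 and 88 in the 48 h arrays, so its high signal had dropped by 24 h to near the filter level. Dgat2 had 5088 and 5049 in the 12 h arrays, 1901 and 1876 in the 24 h arrays and 630.4 and 509.5 in the 48 h arrays, above the 3 h arrays at 12 h and below them after. Mmp8 had 1577 and 1464 in the 12 h arrays, 6873 and 7152 in the 24 h arrays and 12881 and 13687 in the 48 h arrays, and Ccl9 12895 and 12444 in the 12 h arrays, 30503 and 28256 in the 24 h arrays and 30305 and 28049 in the 48 h arrays; both were higher at each of these times than at 3 h. Rag1 stayed under the filter level in all of these later arrays. Cbfa2t3 and Gem were above the filter level at 24 h, with 549.9 and 447 for Cbfa2t3 and 771 and 792 for Gem. Atp1b1, high in vehicle C10 and at 3 h, had 5813 and 5765 in the 12 h arrays, 1067 and 1060.1 in the 24 h arrays and 188 and 193 in the 48 h arrays. These are descriptions of single levels; the later times were not tested here.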

How the data were processed

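RNA of 12 one-colour Affymetrix mouse arrays, 2 in each of 6 groups assigned by sample titles, was available as 1 table of 45101 probe sets. The deposited intensity values were linear and had been scaled by the authors, since the trimmed mean, leaving out 2% at each end, was 500.0 in every array; how probes were summarised is not given in the sources used here. Of the values, 21.2% to 24.6% per array lay under the floor.

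Values were quantile normalised, set to at least 16 and log2 transformed. Of 45101 probe sets, 64 controls were left out; 34945 had 1 gene symbol (34741 found in RefSeq), 932 had several and 9160 none, and only those with 1 were used. Symbols came from the array's platform annotation, updated through RefSeq where matched. Each gene took its brightest probe set. Genes above the median signal in at least 2 arrays were tested in R 4.3.3 with limma 3.58.1, fitting a mean for each group over all 12 arrays, 6 residual degrees of freedom and Benjamini-Hochberg adjustment over 11696 genes, called at 0.05. Where a group had both its arrays below 74.65, the filter level, the fold is a lower bound, taken against the higher of that level and the signal. Of the genes tested, 300 were bounded in HAFTL and 425 in C10 at 3 h. Probe sets disagreed in called direction for 181 genes. The number of arrays limits precision. Tested on simulated data of the main comparison with 11696 genes, the fit called 58 of 100 genes changed by 1 and 84 of 100 changed by 2 on the log2 scale, and 9 of 11496 unchanged ones.

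The members and the 34 gene lists were chosen with earlier results of these data known. Named genes were the 15 largest rises and falls among called genes whose arrays did not overlap, the 6 largest in each direction with vehicle C10 at the level of HAFTL or of C10 at 3 h, the largest changes of each list (up to 4), and a fixed set; further members named were chosen after their values were seen. Promoters came from RefSeq (GRCm38.p6). The 17 alternatives, among them leaving out each compared array in turn, changed scaling, filter, floor, probe set rule, model and samples. Same-numbered arrays did not deviate together: the correlation of their deviations from the group means was 0.037 for C10 at 3 h and HAFTL, and the numbers were not used as a block. Figures were drawn with matplotlib 3.10.9 in Python 3.11.15.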

Additional observations from a re-analysis of the deposited data

Results flagged for a closer look

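The 3′ control probe set of 18S ribosomal RNA, which no comparison uses, read 5929 deposited intensity units in replicate 2 of C10 at 3 h and 605 in replicate 1, against 562 and 420.0 in vehicle C10 and 602 and 1010.0 in HAFTL. Without that replicate 2115 genes were called higher and 2884 lower than in HAFTL, and without the other replicate 2209 and 2751, against 2605 and 3248 with both. Its part in the results was not tested.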

How the results depend on the processing

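Counts of genes higher and lower in C10 at 3 h than in HAFTL stayed within 1.5 times of 2605 and 3248 under the deposited scaling, median centring, and the filter, floor, probe set, sample and prior settings tried. Spike-in scaling gave 1920.0 higher and 493 lower, all of them 2-fold or more, against 913 and 1394, and testing against a minimum log2 change of 1 gave 401 and 590.0. Leaving out 1 array gave 2115 to 2243 higher and 2661 to 2884 lower, and 866 to 940.0 higher and 1271 to 1421 lower by 2-fold or more. With the replicate number as a block, 2556 were higher and 3190.0 lower, and the numbers do not pair the arrays. Of 195 genes in the text, 122 kept direction and call under every alternative that tested them. Under spike-in scaling 37 lost their call, among them Cd79a, Vpreb1, Igll1, Ebf1, Ccnd1, Ccnd3, Cdkn1a, Cebpb, Csf1r, Lyz2, Ddx58, Id2 and Eif2s3y, and 4 turned from lower to higher: Cd74 (0.38), Ebag9 (0.012), Gnl3 (0.16) and Odc1 (0.13). When probe sets were averaged per gene, Mycn was called lower (-1.18) and 7 calls were lost: Csf1r, Egr3, Igfbp4, Igll1, Neu1, Sc5d and Xrcc6. The minimum change of 1 ended 48 calls. The cause was not tested. List medians close to 0 changed sign when 1 array was left out: cytokines were at -0.05 without replicate 1 of C10 at 3 h and -0.17 without replicate 2 of HAFTL, stem and progenitor genes at -0.26 and -0.13 without replicate 2 of C10 at 3 h and replicate 1 of HAFTL, and MHC class II at -0.04 without replicate 1 of HAFTL. Signals near the filter level limit the dim genes, 553 of which lay under it in all 4 arrays.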
